A study of Mus musculus with 24 samples.

Results

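The p53 target genes examined here are 33 genes: Trp53, which encodes p53 itself, and 32 genes widely listed as its direct targets. They were picked by symbol from knowledge of the pathway, with earlier results of these data known. All 33 were found among the 19953 genes of the deposited table. p53 is a transcription factor that is made all the time and kept scarce by the ubiquitin ligase Mdm2, itself a p53 target. When DNA is damaged or growth is disturbed, p53 protein is stabilized and binds paired half-sites near its targets, which then slow the cell cycle, repair DNA or start cell death. Mouse embryonic stem cells hold much p53 protein and have a short first gap phase, and retinoic acid makes them differentiate and divide more slowly.

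The 24 polyA RNA libraries form 8 groups of 3, from mouse embryonic stem cells of 4 genotypes at day 0 and day 4. At day 0 the cells were held undifferentiated in 15% serum plus LIF on gelatin, while those of day 4 had spent 4 days in 10% serum and 1 µM retinoic acid, with no LIF named. No drug was given to WT or Mll1-KO cells, whereas both genotypes without Mll2 had received 800 nM 4-hydroxytamoxifen (4-OHT) over 48 h to switch on Cre, so loss of Mll2 and exposure to 4-OHT cannot be told apart in any comparison. Per the labels' protocols the Mll1-KO was made by CRISPR deletion in the line that carries the Cre-inducible Mll2 allele, and the labels give neither the number of clones nor whether the replicates were separate cultures. Loss of Mll1 thus cannot be told apart from traits of an edited clone, which both genotypes without Mll1 may share. Because the counting is not stated to use strand, antisense genes that overlap 7.68% of the exon bases of Cdkn1a, 6.66% of Ei24 and 8.04% of Rrm2b could share reads with them, as could Gm45808, which overlaps 12.2% of those of Bax on the same strand. Each p-value measures the spread between these samples only. Mll1 (Kmt2a) and Mll2 (Kmt2b) encode related enzymes that methylate lysine 4 of histone H3 at promoters and enhancers.

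Of the 33 genes, 26 have a promoter window in the RefSeq table used here (GRCm38.p6, which is mm10), reaching from 250 bases before to 50 bases after an annotated start. The windows were searched for the p53 half-site, a 10-letter pattern that reads the same on both strands. It is RRRCWWGYYY, where R is A or G, W is A or T and Y is C or T, and no mismatch was allowed. It was found in 13 of the 26 genes, and in 9.55% of the 27025 genes of the table. A pair of such exact half-sites separated by at most 13 bases was found in Cdkn1a alone among the 26, and in 20 genes (0.0740%) of the whole table. Pairs with a near-match were not counted. The stretches below show half-sites of genes called in either direction: Cdkn1a, Mdm2, Ccng1, Ckap2 and Bax rose in the day 4 double-KO, and Sesn1 and Ddit4l fell. Each lies before the RefSeq start that its window is built on and outside every GENCODE release M21 exon. For Sesn1 and Ddit4l that start lies inside the span of the GENCODE gene, so these stretches are within the gene, between exons. Capitals mark exact half-sites only. Near-matches, such as the one right after the last marked site of Cdkn1a, stay in small letters.

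Cdkn1a, chr17:29090729-29090975, plus strand: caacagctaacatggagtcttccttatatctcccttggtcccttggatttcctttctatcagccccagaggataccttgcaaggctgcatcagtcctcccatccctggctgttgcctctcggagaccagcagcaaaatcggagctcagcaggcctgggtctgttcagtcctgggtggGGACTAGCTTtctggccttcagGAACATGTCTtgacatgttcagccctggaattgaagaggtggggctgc
Mdm2, chr10:117710910-117710969, minus strand: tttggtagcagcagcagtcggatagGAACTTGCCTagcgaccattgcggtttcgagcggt
Ccng1, chr11:40755437-40755496, minus strand: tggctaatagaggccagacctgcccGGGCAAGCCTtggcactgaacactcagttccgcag
Ckap2, chr8:22185988-22186047, minus strand: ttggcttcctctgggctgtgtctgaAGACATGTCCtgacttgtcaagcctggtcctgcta
Bax, chr7:45467065-45467124, minus strand: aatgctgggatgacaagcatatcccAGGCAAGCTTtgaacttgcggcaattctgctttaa
Sesn1, chr10:41887241-41887300, plus strand: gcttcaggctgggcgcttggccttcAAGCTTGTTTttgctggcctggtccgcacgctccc
Ddit4l, chr3:137623557-137623616, plus strand: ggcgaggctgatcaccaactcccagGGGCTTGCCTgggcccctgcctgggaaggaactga

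These matches are letters in a short window and not measured binding, since no binding data were used here. Of the 13 genes with a half-site, 10 rose and 2 fell in the day 4 double-KO against WT, and Trp53 was not called, beside 27.6% of all tested genes called higher and 23.3% called lower. Of the 13 genes with a window but no half-site, 12 rose and none fell, the exception being Gdf15, which was not called. Of the 7 genes without a window, 5 rose, Pmaip1 fell and Xpc was not called.

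Recovered totals were 17.7 to 22.8 M reads per day 0 library and 10.7 to 17.1 M per day 4 library. Kmt2a RNA lay at 1047 to 1121 in the day 0 WT libraries, at 20.6 to 43.0 in the day 0 Mll1-KO and at 20.6 to 37.0 in the day 0 double-KO. Kmt2b lay between 2099 and 3701 in every library, and since counts cover the whole gene they check nothing about a deleted part of it. Summed levels of 8 pluripotency markers were 116818 to 136976 at day 0 and 1967 to 7948 at day 4. In the day 0 Mll2-KO, replicate 3 was the highest of the 3 libraries for 20 of 20 integrated stress response genes and for 21 of the 33 p53 genes. In the day 4 WT, replicate 2 was the lowest of its group for 25 of the 33 p53 genes and replicate 1 the highest for 23.

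Calls rest on limma, fitted to log2 of the normalized count plus 1, and mean an adjusted p under 0.05 by the Benjamini-Hochberg method over all genes tested. At day 4 the double-KO stood apart: 27 of the 33 p53 genes were higher than in WT and 3 were lower, beside 27.6% of all 14303 tested genes called higher and 23.3% called lower. Their median difference was 0.38 on the log2 scale, and that of all genes was 0.03. In the day 4 Mll2-KO 18 were higher and 3 lower (25.4% and 20.3% of all genes), with a median of 0.18. In the day 4 Mll1-KO 10 were higher and 2 lower (16.5% and 19.2% of all genes), with a median of 0.07, or 11 and 4 without WT replicate 3. The double-KO was also above each single mutant at day 4, with 24 genes higher and 2 lower than in the Mll1-KO (31.1% and 23.7% of all genes), and 22 higher and 2 lower than in the Mll2-KO (19.4% and 20.9%). The 2 lower calls of the last comparison became 1 without Mll2-KO replicate 1 or 3 or double-KO replicate 2 or 3.

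At day 0 the picture was another one, among 32 tested p53 genes, since Fas was below the level needed for the test. In the day 0 Mll1-KO 5 were higher than in WT and 15 were lower, beside 21.3% and 18.7% of the 13984 genes tested. These became 3 and 13 without WT replicate 3, 3 and 12 without Mll1-KO replicate 1, and 3 and 17 under scaling to equal column totals. That scaling also took the higher share of the calls among all genes from 53.2% to 38.9%. In the day 0 Mll2-KO 14 were higher and 4 lower (22.8% and 24.3% of all genes). In the day 0 double-KO 6 were higher and 14 lower (26.6% and 27.1% of all genes). Without replicate 3 the Mll2-KO counts were 10 higher and 5 lower, without WT replicate 2 they were 10 and 2, a total of 12 in place of 18, and without Mll2-KO replicate 2 they were 13 and 2. The day 0 double-KO differed from the Mll1-KO in 5 genes that were higher and 6 that were lower (18.9% and 22.0% of all genes), or 2 and 5 without Mll1-KO replicate 1 and 3 and 6 without double-KO replicate 3, and from the Mll2-KO in 4 that were higher and 19 that were lower (23.4% and 24.3%). Without double-KO replicate 1 the last split became 2 higher and 19 lower. With libraries scaled to equal column totals it became 1 higher and 21 lower, and that of the day 4 Mll2-KO against WT became 12 higher and 4 lower. In these 2 comparisons the higher share of the calls among all genes moved as well, from 49.0% to 38.1% and from 55.6% to 34.5%. The difference between double-KO and WT changed from day 0 to day 4 in 27 p53 genes, upwards in 26 and downwards in 1, beside 20.3% and 19.2% of 15114 genes. The downward call was lost without replicate 1 of either group at either day, or without day 4 double-KO replicate 3.

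**Figure D1:**
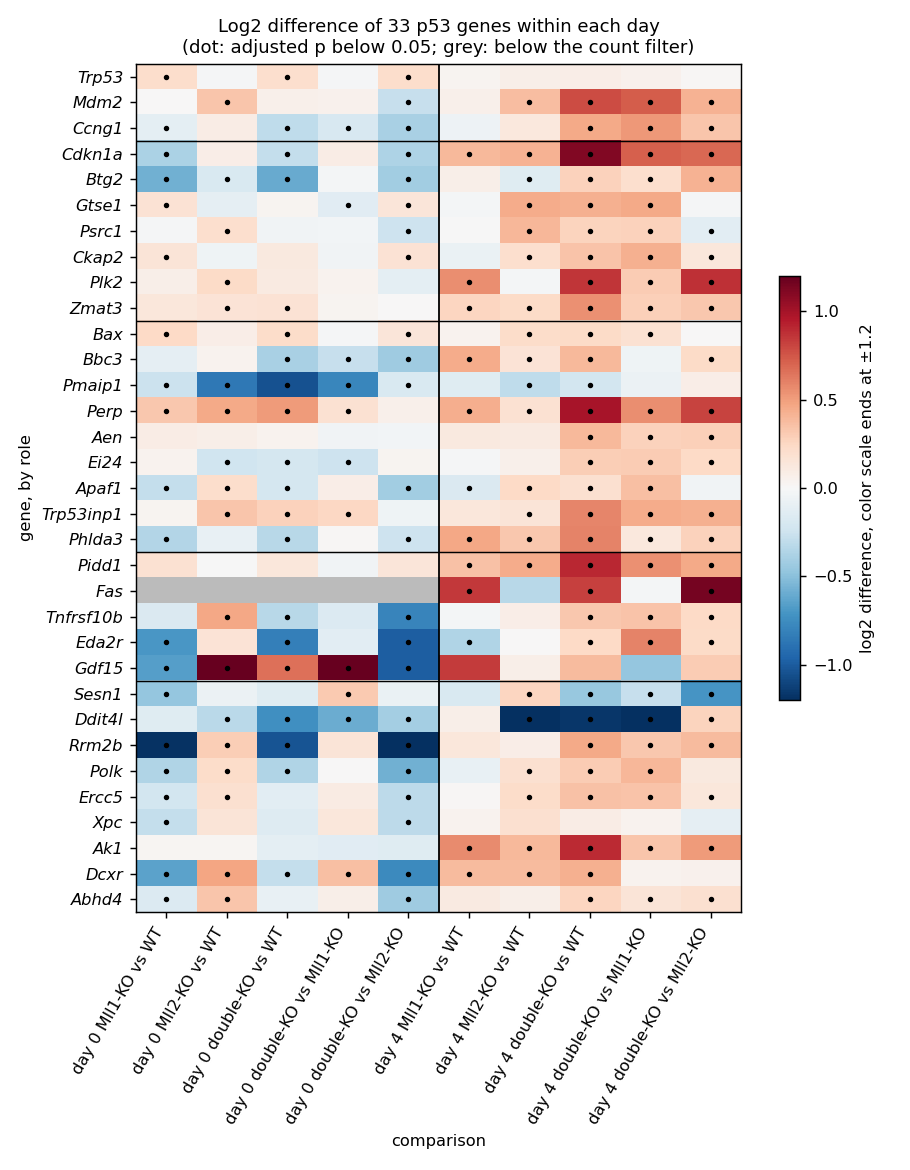
Log2 difference of each of the 33 p53 genes (rows, by role) in the 10 comparisons within a day (columns), on a color scale that ends at 1.2 in either direction, with a dot for an adjusted p below 0.05 and grey where a gene was below the level needed for the test. The day 4 double-KO against WT has 27 called rises and the falls of Ddit4l, Sesn1 and Pmaip1, while the day 0 Mll1-KO and double-KO against WT hold more called falls (15 and 14) than rises (5 and 6).

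The first group of genes is p53 and the loop that limits it. Trp53 normalized counts were 6122, 6292 and 5915 in the day 0 WT libraries and 1954, 1932 and 1970 at day 4, a drop with no overlap (log2 difference -1.65 ± 0.04, the SE as throughout, limma adjusted p = 4.7e-23). At day 0 Trp53 was 7196, 6972 and 7022 in the Mll1-KO, 5923, 5908 and 6294 in the Mll2-KO, and 6858, 6816 and 7356 in the double-KO. Both genotypes without Mll1 lay above every WT library, by 0.21 ± 0.04 (adjusted p = 0.00078) and 0.20 ± 0.04 (adjusted p = 0.00085), while the Mll2-KO overlapped WT. At day 4 it was 2052, 1959 and 1977 in the Mll1-KO, 2096, 1948 and 2110 in the Mll2-KO, and 2064, 1981 and 2165 in the double-KO, and no mutant was called against WT. The double-KO difference at day 4, where 27 targets rose, was 0.08 ± 0.05 for Trp53 RNA (adjusted p = 0.13).

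Mdm2, the ubiquitin ligase that degrades p53, measured 3067, 2967 and 3061 in the day 0 WT, 3119, 2952 and 3079 in the Mll1-KO, 3601, 3695 and 4185 in the Mll2-KO, and 3181, 3017 and 3274 in the double-KO. Only the Mll2-KO libraries lay clear of WT at day 0 (0.33 ± 0.05, adjusted p = 3.8e-05). At day 4 it measured 4649, 4036 and 4406 in WT, 4657, 4343 and 4606 in the Mll1-KO, 5692, 5320 and 5846 in the Mll2-KO, and 7269, 7567 and 7621 in the double-KO. The double-KO was the highest group, 1.72-fold above WT (0.78 ± 0.05, adjusted p = 9.2e-13), the Mll2-KO stood between (0.37 ± 0.05, adjusted p = 7.1e-07), and the Mll1-KO overlapped WT. Ccng1, which encodes cyclin G1, a partner of the phosphatase that acts on Mdm2, had the highest level per kilobase of exon among the 33 genes in the day 4 WT (3710, against 1214 for Perp, the next) and double-KO (5083, against 2400 for Perp). It measured 14190, 12545 and 12351 in the day 4 WT and 17044, 18235 and 18270 in the double-KO, a rise of 0.46 ± 0.05 with no overlap (adjusted p = 1e-07). At day 0 it ran the other way, with 5054, 4922 and 5212 in WT and 4134, 4076 and 4112 in the double-KO (-0.30 ± 0.04, adjusted p = 8.2e-06). From day 0 to day 4 Ccng1 rose in WT by 1.36 ± 0.05 and in the double-KO by 2.12 ± 0.05.

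**Figure D2:**
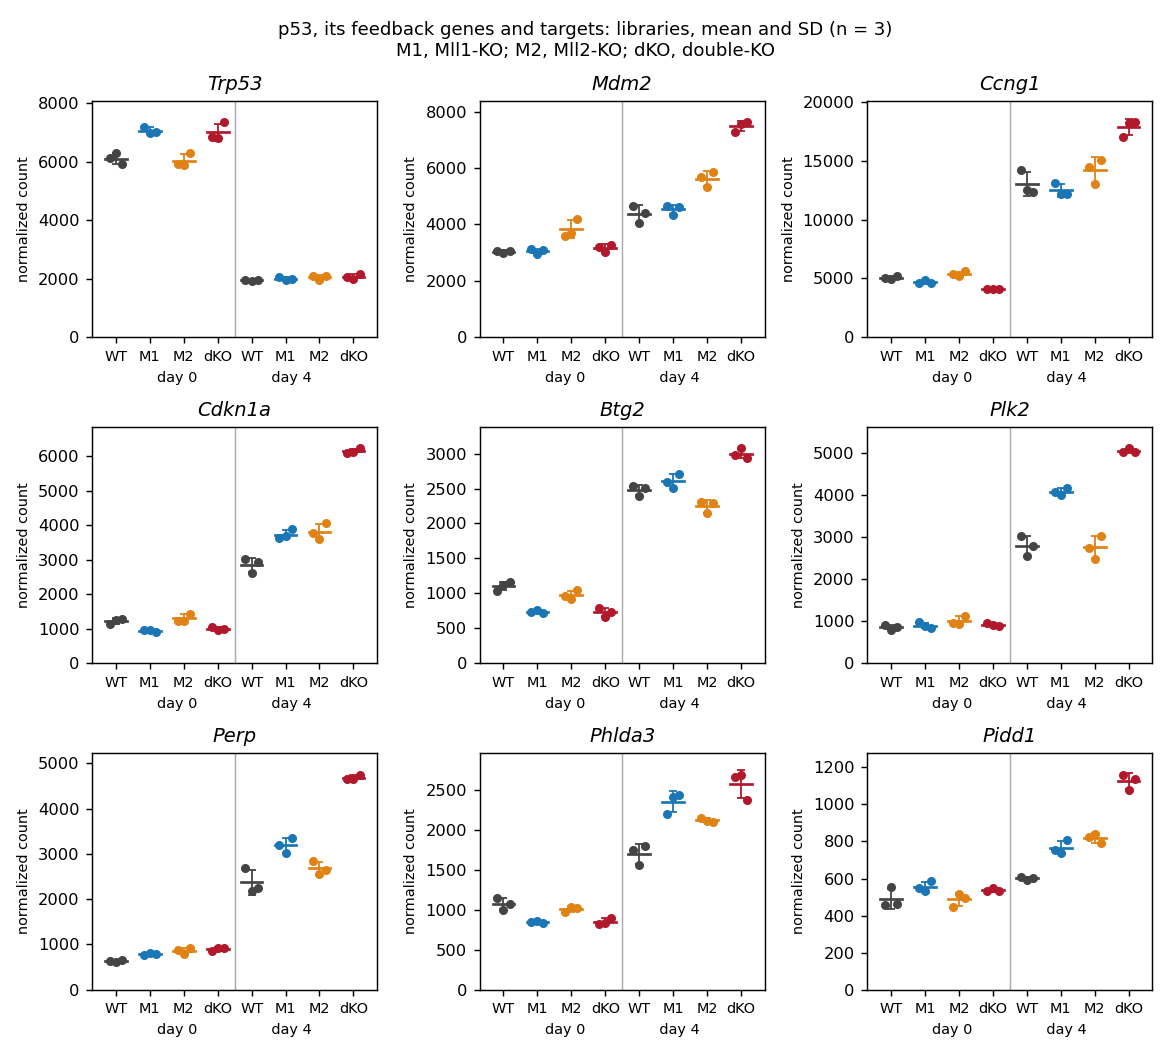
Normalized counts of Trp53, Mdm2, Ccng1, Cdkn1a, Btg2, Plk2, Perp, Phlda3 and Pidd1 in each library (points), with mean and SD as bars (n = 3), by genotype at day 0 and day 4. For every gene but Trp53 the day 4 double-KO has the highest mean, and Trp53 falls to about 2000 in all 4 genotypes at day 4.

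Among the 7 genes of cell cycle and growth arrest, all 7 rose in the day 4 double-KO against WT, 5 rose and Btg2 fell in the Mll2-KO, and 3 rose in the Mll1-KO. Of all genes, 27.6% rose in the double-KO, 25.4% rose and 20.3% fell in the Mll2-KO, and 16.5% rose in the Mll1-KO. The 7 include Gtse1, Psrc1 and Ckap2, which are made mostly in dividing cells. The fall of Btg2 was -0.14 ± 0.04 (adjusted p = 0.0099), and -0.11 and not called without Mll2-KO replicate 2. Cdkn1a encodes p21, the inhibitor of cyclin-dependent kinases through which p53 arrests the cycle. It measured 3023, 2620 and 2929 in the day 4 WT, 3624, 3690 and 3885 in the Mll1-KO, 3775, 3617 and 4057 in the Mll2-KO, and 6093, 6123 and 6231 in the double-KO. Both single mutants lay above all WT libraries and overlapped each other, and the double-KO lay above everything else. Its mean was 2.15-fold that of WT (log2 difference 1.11 ± 0.05, adjusted p = 2.1e-15), against 0.39 ± 0.05 in the Mll1-KO (adjusted p = 8.1e-07) and 0.42 ± 0.05 in the Mll2-KO (adjusted p = 1.6e-07). The rise exceeded the sum of the single differences on the log2 scale by 0.30 ± 0.07 (adjusted p = 0.0049).

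At day 0 Cdkn1a measured 1133, 1259 and 1301 in WT, 956, 956 and 922 in the Mll1-KO, 1241, 1241 and 1437 in the Mll2-KO, and 1062, 972 and 987 in the double-KO. The 2 genotypes without Mll1 were thus the lowest, by -0.38 ± 0.07 (adjusted p = 0.00013) and -0.29 ± 0.07 (adjusted p = 0.0011), and the Mll2-KO was not called. The day 4 increase was 1.21 ± 0.06 in WT, 1.98 ± 0.06 in the Mll1-KO, 1.55 ± 0.06 in the Mll2-KO and 2.61 ± 0.06 in the double-KO. Each mutant gained more than WT, by 0.77 ± 0.09 (adjusted p = 9.5e-08), 0.33 ± 0.09 (adjusted p = 0.0032) and 1.40 ± 0.09 (adjusted p = 7.4e-13). Over the means of the 8 groups, the genes whose log2 levels ran most like Cdkn1a, among 11803 with a mean of at least 50, were Suco (Pearson r = 0.993), Cd81 (0.992), Ypel5 (0.991), Pcdhgc3 (0.991) and Psd (0.991). The nearest p53 gene was Phlda3 in rank 11 (r = 0.989), and these values describe 8 points that share the day 0 to day 4 change.

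Plk2, a polo-like kinase, and Btg2, an antiproliferative cofactor of mRNA deadenylation, both rose in the day 4 double-KO, as Cdkn1a did, but not in both single mutants. Plk2 measured 3034, 2559 and 2790 in WT, 4089, 4001 and 4186 in the Mll1-KO, 2755, 2484 and 3043 in the Mll2-KO, and 5043, 5116 and 5027 in the double-KO. The Mll1-KO (0.55 ± 0.06, adjusted p = 3.8e-08) and the double-KO (0.86 ± 0.06, adjusted p = 5e-12) rose, whereas the Mll2-KO overlapped WT. In neither single mutant did Btg2 rise. It measured 2532, 2399 and 2506 in WT and 2983, 3072 and 2938 in the double-KO (0.27 ± 0.04, adjusted p = 1e-05). Without Mll1, Btg2 had been lower at day 0, by -0.58 ± 0.07 in the Mll1-KO (adjusted p = 1.4e-06) and by -0.60 ± 0.07 in the double-KO (adjusted p = 4.2e-07). From day 0 to day 4 in WT both increased, Plk2 by 1.70 ± 0.07 and Btg2 by 1.16 ± 0.06.

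Gtse1, Psrc1 and Ckap2 act on microtubules and are made mostly in dividing cells, and Gtse1 also carries p53 out of the nucleus. Gtse1 measured 1898, 1774 and 1937 in the day 4 WT, 1909, 1878 and 1723 in the Mll1-KO, 2577, 2404 and 2642 in the Mll2-KO, and 2554, 2395 and 2604 in the double-KO. The 2 genotypes without Mll2 lay above the other 2 with no overlap, by 0.44 ± 0.05 (adjusted p = 9.5e-08) and 0.43 ± 0.05 (adjusted p = 1e-07) against WT. Psrc1 was higher in the same 2 genotypes, by 0.40 ± 0.05 where Mll2 alone was lost (adjusted p = 1.2e-07) and by 0.27 ± 0.05 in the double-KO (adjusted p = 2.9e-05). Ckap2 rose by 0.34 ± 0.05 in the double-KO (adjusted p = 2.7e-06) and was also called higher in the Mll2-KO. Gtse1 and Psrc1 were lower at day 4 than at day 0 in every genotype, in WT by -1.15 ± 0.05 and -0.71 ± 0.05. Zmat3, an RNA-binding growth suppressor, measured 2729, 2378 and 2678 in the day 4 WT and 3609, 3770 and 3994 in the double-KO (0.55 ± 0.05, adjusted p = 7e-10), and was called in both single mutants (0.26 ± 0.05 and 0.23 ± 0.05).

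The 9 genes of cell death through mitochondria, with related genes, gave 8 rises and 1 fall in the day 4 double-KO (27.6% and 23.3% of all genes). Perp, a membrane protein of desmosomes and of p53-dependent death, measured 2686, 2169 and 2255 in WT, 3193, 3018 and 3351 in the Mll1-KO, 2840, 2561 and 2633 in the Mll2-KO, and 4655, 4651 and 4748 in the double-KO. The double-KO libraries lay close together above all others (0.99 ± 0.06, adjusted p = 5.7e-13), and the Mll1-KO was between (0.43 ± 0.06, adjusted p = 2.1e-06). The Mll2-KO rise of 0.18 was called too, but not without WT replicate 2 (0.12). Perp was also higher at day 0, by 0.33 ± 0.07 in the Mll1-KO, 0.46 ± 0.07 in the Mll2-KO and 0.51 ± 0.07 in the double-KO, and it increased by 1.92 ± 0.07 from day 0 to day 4 in WT. Phlda3, which restrains the kinase AKT, measured 1741, 1560 and 1790 in the day 4 WT, 2197, 2413 and 2430 in the Mll1-KO, 2148, 2110 and 2097 in the Mll2-KO, and 2654, 2686 and 2368 in the double-KO. All 3 mutants lay above WT (0.47 ± 0.05, 0.32 ± 0.05 and 0.60 ± 0.05), whereas at day 0 the 2 genotypes without Mll1 had lain below it (-0.35 ± 0.06 and -0.33 ± 0.06).

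Bax, which permeabilizes mitochondria, Bbc3 (PUMA) and Apaf1, the core of the apoptosome, rose less than Perp and Phlda3 in the day 4 double-KO. Bbc3 measured 925, 887 and 922 in the day 4 WT, 1195, 1255 and 1270 in the Mll1-KO, 982, 1076 and 1014 in the Mll2-KO, and 1242, 1272 and 1083 in the double-KO. Its Mll1-KO and double-KO libraries overlapped each other above WT (0.44 ± 0.06, adjusted p = 1.1e-06; 0.39 ± 0.06, adjusted p = 3.1e-06). At day 0 Bbc3 fell only in the double-KO among the 3 mutants (-0.39 ± 0.06, adjusted p = 3.7e-05). Bax rose at day 4 by 0.22 ± 0.05 in the Mll2-KO and 0.23 ± 0.05 in the double-KO, and at day 0 by 0.24 ± 0.05 in the Mll1-KO and 0.22 ± 0.05 in the double-KO. Apaf1 measured 3476, 3062 and 3275 in the day 4 WT and 2876, 2907 and 2926 in the Mll1-KO, where it fell by -0.17 ± 0.05 (adjusted p = 0.0047). It was higher than WT in the day 4 Mll2-KO (0.23 ± 0.05) and double-KO (0.19 ± 0.05).

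Pmaip1 (NOXA), which neutralizes the survival protein MCL1, went against the group. It measured 3544, 3661 and 3986 in the day 0 WT, 3029, 3142 and 3158 in the Mll1-KO, 2086, 2042 and 2020 in the Mll2-KO, and 1838, 1805 and 1764 in the double-KO. The 4 groups did not overlap, and the double-KO lay 2.07-fold below WT (-1.05 ± 0.05, adjusted p = 5.8e-13) and the Mll2-KO 1.82-fold (-0.86 ± 0.05, adjusted p = 3e-11). At day 4 it measured 2470, 2027 and 1979 in WT, 1846, 1582 and 1818 in the Mll2-KO, and 1758, 1906 and 1880 in the double-KO, where the fall of -0.22 ± 0.07 (adjusted p = 0.0087) became -0.12 and was not called without WT replicate 1. The Mll2-KO fall of -0.30 ± 0.07 was -0.20 without that library, and still called. Aen, a nuclease (0.39 ± 0.05), Ei24, a membrane protein of the endoplasmic reticulum (0.30 ± 0.05), and Trp53inp1, a cofactor of p53 and autophagy (0.58 ± 0.06), rose in the day 4 double-KO and were not called in the Mll1-KO. Trp53inp1 was also called higher in the day 4 Mll2-KO (0.16), a call lost without WT replicate 2 (0.09). At day 0 Ei24 had been lower in the Mll2-KO and double-KO (-0.24 ± 0.05 and -0.21 ± 0.05).

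The 5 genes of death signalling from the membrane, with the death-domain adaptor Pidd1 and the secreted Gdf15, gave 4 rises and no fall in the day 4 double-KO (27.6% and 23.3% of all genes). Pidd1 measured 609.7, 594 and 602 in WT, 752, 740.4 and 809 in the Mll1-KO, 826, 841 and 790.0 in the Mll2-KO, and 1161, 1078 and 1137 in the double-KO. The groups stood in steps, with the single mutants overlapping each other and the double-KO 1.87-fold above WT (0.90 ± 0.05, adjusted p = 8.9e-13). Fas, the receptor of FAS ligand, was close to 0 at day 0: 9.19, 9.11 and 3.11 in WT, 0, 8.79 and 0.843 in the Mll1-KO, 7.16, 13.7 and 7.63 in the Mll2-KO, and 4.93, 4.21 and 3.44 in the double-KO. At day 4 it measured 57.9, 48.1 and 62.4 in WT, 115, 93.8 and 95.3 in the Mll1-KO, 49, 37.7 and 46.9 in the Mll2-KO, and 97.4, 96.6 and 105 in the double-KO. The 2 genotypes without Mll1 lay above the other 2, by 0.84 ± 0.16 (adjusted p = 0.00021) and 0.82 ± 0.16 (adjusted p = 0.00016) against WT, and the double-KO exceeded the Mll2-KO by 1.15 ± 0.16 (adjusted p = 3.1e-06). These 3 calls were not made when all 24 libraries shared one fit. The increase from day 0 to day 4 in WT was fitted at 2.92 ± 0.49, and at 2.37 with 5 in place of 1 added before taking logarithms.

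Tnfrsf10b, the mouse receptor of the death ligand TRAIL, measured 631, 613 and 645 in the day 0 WT, 584, 560.3 and 534 in the Mll1-KO, 807, 824 and 977 in the Mll2-KO, and 537, 468 and 494 in the double-KO. It was highest in the Mll2-KO (0.46 ± 0.08, adjusted p = 6.4e-05) and below WT in the double-KO (-0.34 ± 0.08, adjusted p = 0.0011), and the Mll2-KO difference from WT was larger than that of the double-KO from the Mll1-KO (-0.62 ± 0.11, adjusted p = 0.00091). At day 4 only the double-KO was called against WT among the 3 mutants (0.32 ± 0.05, adjusted p = 2.6e-05). Eda2r, a receptor of ectodysplasin A2, measured 1028, 936 and 1139 in the day 0 WT, 634, 619.8 and 653 in the Mll1-KO, 1166, 1067 and 1242 in the Mll2-KO, and 574, 532 and 645 in the double-KO. The genotypes without Mll1 lay well below the other 2 (-0.70 ± 0.08 and -0.82 ± 0.08). At day 4 it measured 2768, 2431 and 2525 in WT, 2042, 2007 and 1963 in the Mll1-KO, 2652, 2326 and 2793 in the Mll2-KO, and 2959, 3051 and 3093 in the double-KO. At day 4 the Mll1-KO was the lowest group (-0.36 ± 0.05, adjusted p = 1.2e-05) while the double-KO was the highest (0.24 ± 0.05, adjusted p = 0.00076), a departure from additivity of 0.59 ± 0.08 (adjusted p = 1.3e-05).

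Gdf15, a secreted stress hormone that p53 and the integrated stress response both raise, measured 130.2, 101 and 113 in the day 0 WT, 49.4, 102 and 74.2 in the Mll1-KO, 335, 322 and 435 in the Mll2-KO, and 176, 173 and 195 in the double-KO. The Mll2-KO was 3.17-fold above WT (1.65 ± 0.19, adjusted p = 6e-07), the double-KO was above WT as well (0.66 ± 0.19, adjusted p = 0.0055) and 1.32 ± 0.19 above the Mll1-KO. The lower value of the Mll1-KO (-0.66 ± 0.19, adjusted p = 0.0079) became -0.39 and was not called without its replicate 1. Day 4 values were 8.13, 8.02 and 7.07 in WT and at most 16.9 in any library, and no mutant was called against WT. Of the 20 genes of the integrated stress response at day 0, 20 rose and none fell in the Mll2-KO (22.8% and 24.3% of all genes). In the double-KO 18 of them rose and none fell (26.6% and 27.1%). These were the genotypes in which Gdf15 was higher. In the Mll1-KO, where Gdf15 was lower, 11 of the 20 genes rose and 2 fell (21.3% and 18.7%). Ddit3, which encodes CHOP, rose by 2.32 ± 0.12 in the Mll2-KO and by 1.47 ± 0.12 in the double-KO. Their part in the day 0 values of Gdf15 was not tested.

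**Figure D3:**
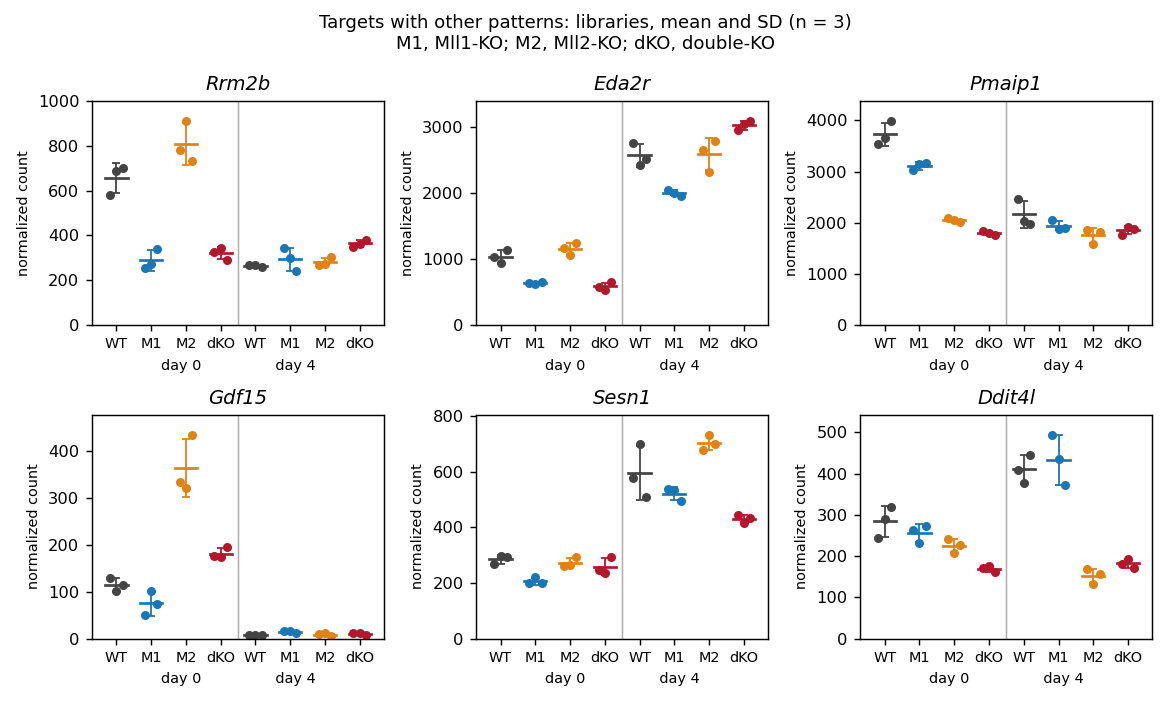
Normalized counts of Rrm2b, Eda2r, Pmaip1, Gdf15, Sesn1 and Ddit4l in each library (points), with mean and SD as bars (n = 3), by genotype at day 0 and day 4. Rrm2b and Eda2r are low at day 0 in the 2 genotypes without Mll1, Pmaip1 and Gdf15 separate the Mll2-KO from WT at day 0, and Ddit4l is low at day 4 in the 2 genotypes without Mll2.

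Of the 9 genes of repair, nucleotide supply and metabolism, 7 fell and none rose in the day 0 Mll1-KO (18.7% and 21.3% of all genes). In the day 0 Mll2-KO 5 rose and 1 fell (22.8% and 24.3%), and in the day 4 double-KO 6 rose and 2 fell (27.6% and 23.3%). Rrm2b, the p53-induced subunit of ribonucleotide reductase that supplies nucleotides for repair, measured 580.4, 687 and 704 in the day 0 WT, 252, 272 and 341 in the Mll1-KO, 783, 912 and 731 in the Mll2-KO, and 326, 343 and 289.7 in the double-KO. The genotypes without Mll1 were the low ones, 2.28-fold (-1.19 ± 0.11, adjusted p = 3.7e-08) and 2.05-fold (-1.03 ± 0.11, adjusted p = 1.3e-07) below WT. The day 4 libraries measured 268, 267 and 259 in WT, 345, 297 and 241 in the Mll1-KO, 269, 271 and 303 in the Mll2-KO, and 349, 363 and 381 in the double-KO. The day 4 groups were close, and only the double-KO was called against WT (0.46 ± 0.10, adjusted p = 0.0004). Rrm2b thus fell from day 0 to day 4 in WT (-1.30 ± 0.11) and in the Mll2-KO (-1.52 ± 0.11). It was not called in the Mll1-KO (0.02 ± 0.11) or the double-KO (0.19 ± 0.11), which were low already at day 0.

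Sesn1 and Ddit4l, which both restrain the growth kinase complex mTORC1, were the repair and metabolism genes that fell in the day 4 double-KO. Ddit4l measured 409.5, 377 and 445 in the day 4 WT, 494, 435 and 372 in the Mll1-KO, 168, 132 and 156 in the Mll2-KO, and 181, 193 and 172 in the double-KO. The genotypes without Mll2 lay far below the other 2, by -1.43 ± 0.11 for Mll2-KO minus WT (adjusted p = 4.9e-11) and -1.17 ± 0.11 for double-KO minus WT (adjusted p = 1.2e-09). Day 0 levels were 243, 290.1 and 319 in WT and 171, 177 and 162 in the double-KO (-0.73 ± 0.11, adjusted p = 1.5e-05). Sesn1 measured 577, 699.7 and 510.1 in the day 4 WT, 537, 534 and 495 in the Mll1-KO, 679, 733 and 702 in the Mll2-KO, and 443, 417 and 436 in the double-KO. The double-KO was the lowest group with no overlap (-0.45 ± 0.08, adjusted p = 5.1e-05), and it departed from additivity by -0.53 ± 0.11 (adjusted p = 0.0033).

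Ak1, an adenylate kinase that balances ATP, ADP and AMP, measured 731, 768 and 781 in the day 4 WT, 1073, 1143 and 1154 in the Mll1-KO, 1021, 962 and 1002 in the Mll2-KO, and 1396, 1433 and 1419 in the double-KO. The 4 groups did not overlap and the double-KO difference (0.90 ± 0.05, adjusted p = 1.6e-13) was near the sum of 0.56 ± 0.05 and 0.39 ± 0.05 in the single mutants, with a departure from additivity of -0.05 ± 0.07. At day 0 no mutant was called against WT for Ak1. Polk, a translesion DNA polymerase, and Ercc5, a nuclease of nucleotide excision repair, fell in the day 0 Mll1-KO (-0.36 ± 0.07 and -0.22 ± 0.06) and rose in the day 4 double-KO (0.30 ± 0.06 and 0.36 ± 0.05). Xpc, which recognizes damage in the same repair pathway, fell in the day 0 Mll1-KO (-0.29 ± 0.08) and was called in no mutant at day 4. Dcxr, a carbonyl reductase, fell by -0.64 ± 0.10 in the day 0 Mll1-KO and rose by 0.43 ± 0.08 in the day 4 double-KO, and Abhd4, a lipid hydrolase, rose by 0.33 ± 0.06 in the day 0 Mll2-KO and by 0.25 ± 0.04 in the day 4 double-KO.

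**Figure D4:**
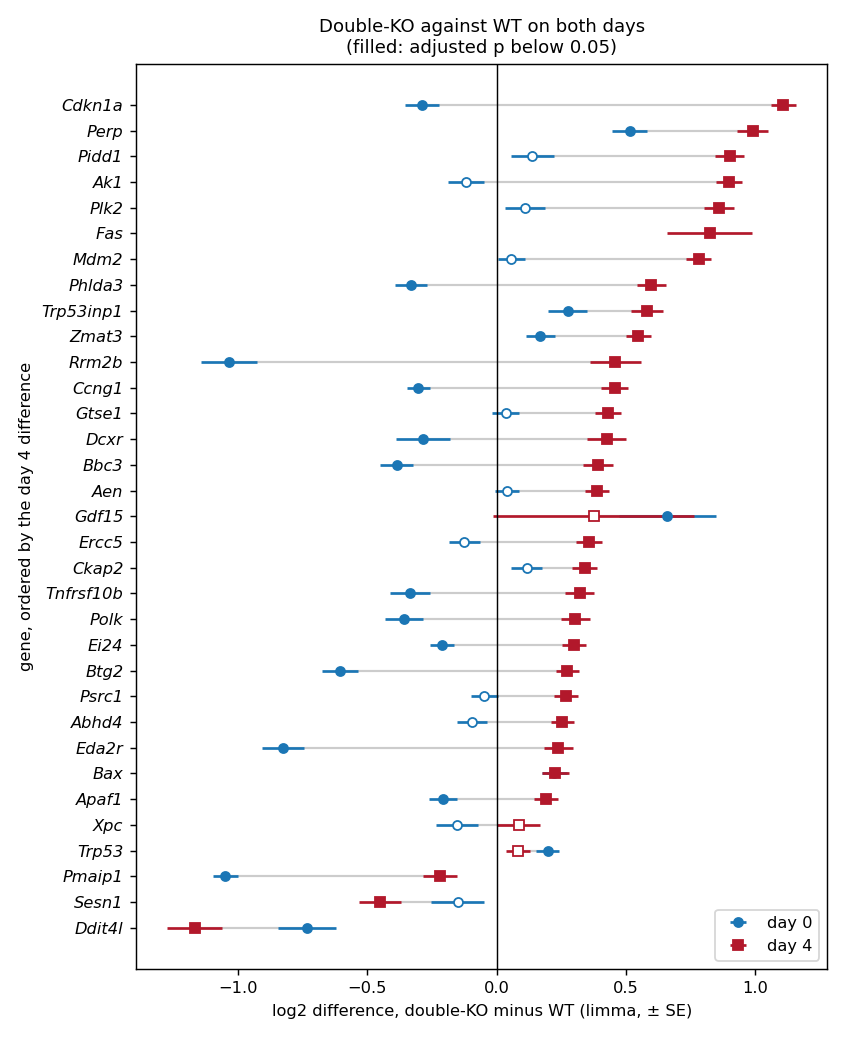
Log2 difference of the double-KO from WT (x axis, with its SE as bars) at day 0 (circles) and day 4 (squares) for each p53 gene (rows, in the order of the day 4 difference), filled where the adjusted p is below 0.05. Cdkn1a, Rrm2b and Eda2r lie below 0 at day 0 and above 0 at day 4, Ddit4l lies below 0 on both days, and Fas has no day 0 value.

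The change of each mutant's difference from WT between days was tested gene by gene. An upward change need not be a change of sign: in the double-KO Pmaip1 lay below WT on both days and Perp above it. The change of the double-KO difference from day 0 to day 4 was 1.49 ± 0.16 for Rrm2b (adjusted p = 3.6e-08), 1.40 ± 0.09 for Cdkn1a and 1.06 ± 0.10 for Eda2r (adjusted p = 4.9e-09), and it was negative only for Ddit4l among the called genes (-0.43 ± 0.16, adjusted p = 0.036), a call that 7 of the alternative analyses ended, among them leaving out day 0 WT replicate 1 (-0.33). For the Mll1-KO 15 genes changed upwards and 4 downwards (15.0% and 19.0% of all genes), which became 20 and 0 under scaling to column totals. That scaling also took the upward share of the calls among all genes from 44.0% to 64.7%. For the Mll2-KO 9 changed upwards and 5 downwards (19.3% and 17.0% of all genes), or 7 and 6 under column totals. There the upward share of the calls among all genes went from 53.2% to 37.5%. By role, the double-KO change was upwards in 7 of 7 genes of cell cycle and growth arrest, among them Gtse1, Psrc1 and Ckap2 of dividing cells. It was upwards in 8 of 9 genes of mitochondrial death and related, Bax being the one not called (0.00 ± 0.07). Of all genes 20.3% changed upwards.

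Most of these genes changed between the days in WT: 19 were higher and 13 lower at day 4 than at day 0, beside 43.0% and 39.9% of all genes. The largest increases in WT were those of Fas, Perp, Plk2, Ccng1 and Eda2r (1.32 ± 0.07 for the last). The largest decreases were those of Gdf15 (-3.72 ± 0.26), Trp53, Rrm2b and Gtse1. In the Mll1-KO 21 were higher and 10 lower (43.7% and 40.4% of all genes), or 24 and 6 under column totals. In the Mll2-KO 19 were higher and 11 lower (41.9% and 39.6%), and in the double-KO 23 were higher and 5 lower (43.2% and 40.1%). The day comparison holds medium, serum and cell type together. Scaling to column totals also moved the median of all genes, from 0.04 to 0.17 in WT and from 0.06 to 0.29 in the Mll1-KO.

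Departures from additivity, that is double-KO minus Mll1-KO less Mll2-KO minus WT, were called for 13 p53 genes at day 4, upwards for 11 and downwards for Sesn1 and Dcxr (7.59% and 6.05% of all genes). The upward ones were led by Eda2r, Ccng1 (0.39 ± 0.08, adjusted p = 0.0011) and Perp (0.38 ± 0.08, adjusted p = 0.0035), and included Mdm2 (0.36 ± 0.07, adjusted p = 0.00087) and Btg2 (0.35 ± 0.06, adjusted p = 0.0005). The count was 8 without Mll2-KO replicate 2 and 8 when all 24 libraries shared a fit. At day 0 there were 5, all downwards (4.42% of all genes were called upwards and 4.71% downwards), and 2 to 6 when a library was left out.

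Other genes of the pathway were read from lists that are no members, also chosen with earlier results of these data known. Of 48 tested further p53 targets, 33 rose and 4 fell in the day 4 double-KO, 25 rose and 3 fell in the Mll2-KO, and 20 rose and 8 fell in the Mll1-KO, with medians of 0.32, 0.19 and 0.19. Of all genes, 27.6% rose and 23.3% fell in the double-KO, 25.4% and 20.3% in the Mll2-KO, and 16.5% and 19.2% in the Mll1-KO. Leaving aside genes whose higher group averaged under 50, Crip2 led the rises of the double-KO (1.48 ± 0.06, adjusted p = 1.1e-15), and Gadd45g, a stress sensor of the cell cycle, followed (0.82 ± 0.09, adjusted p = 2.2e-08). Tex15 (-2.28 ± 0.15) and Dram1, a gene of autophagy (-0.72 ± 0.10), fell the most. At day 0 the same list gave 11 rises and 13 falls among 47 tested in the double-KO, shares near those of all genes (26.6% and 27.1%). Dram1 was at -3.15 ± 0.29.

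Among 30 regulators of p53, 9 rose and 5 fell in the day 4 double-KO (median 0.02), shares near those of all genes (27.6% and 23.3%). Ppp1r13l, which encodes the p53 inhibitor iASPP, rose by 1.07 ± 0.09 (adjusted p = 1.6e-10) and the methyltransferase gene Setd7 by 0.50 ± 0.05, while Sirt1, a deacetylase of p53, fell by -0.41 ± 0.06 and Cdkn2a, whose ARF product blocks Mdm2, by -0.39 ± 0.07. Of 30 cell cycle genes that p53 lowers through p21 and the DREAM complex, 2 rose and 15 fell in the day 4 double-KO, none rose and 22 fell in the Mll1-KO, and 25 rose and 2 fell in the Mll2-KO. The shares of all genes in the Mll1-KO were 16.5% and 19.2%, and those in the Mll2-KO 25.4% and 20.3%. At day 0, 2 of the 30 rose and 26 fell in the Mll2-KO (22.8% and 24.3% of all genes). In the day 0 Mll1-KO 6 rose and 11 fell (21.3% and 18.7%), and in the day 0 double-KO 2 rose and 17 fell (26.6% and 27.1%). Cdkn1a was called higher in both single mutants at day 4, and its part in the levels of this list was not tested. Of 21 core apoptosis genes, 5 rose and 4 fell in the day 4 double-KO, again near the shares of all genes. Among them Casp8, the caspase below Fas, fell by -4.70 ± 0.35 (adjusted p = 3.6e-11).

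**Figure D5:**
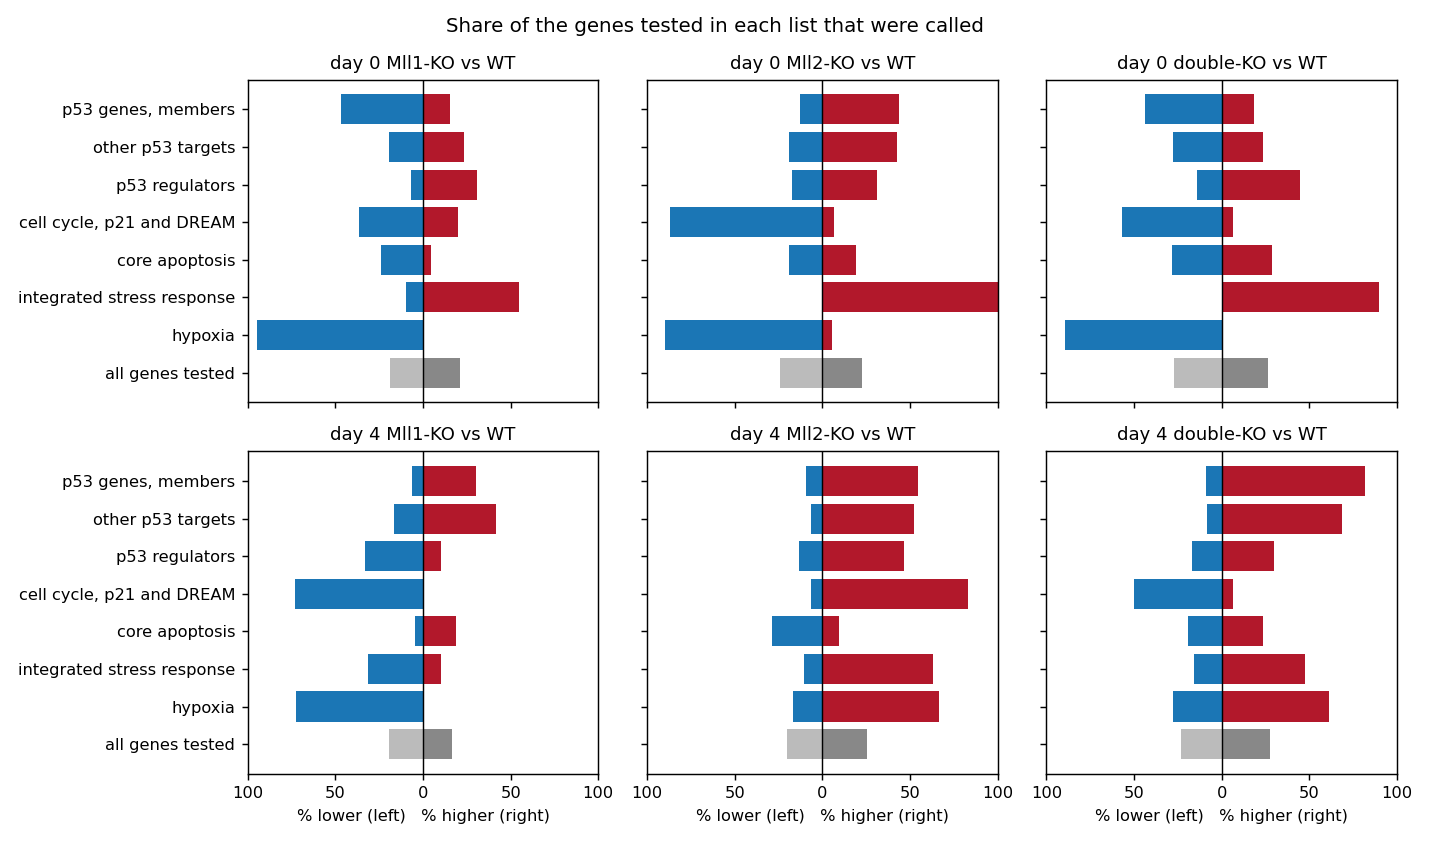
Percent of the tested genes of each list called higher (right) or lower (left) than WT, with all genes tested in grey, for each mutant at day 0 (upper panels) and day 4 (lower panels). In the day 4 double-KO 27 of 33 p53 genes and 33 of 48 further targets are called higher, and at day 4 the cell cycle list is mostly higher in the Mll2-KO (25 of 30) and mostly lower in the Mll1-KO (22 of 30). At day 0 that list is mostly lower in the Mll2-KO (26 of 30).

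Markers of other cell types and of culture state moved with the genotypes. Summed levels of 8 fibroblast markers were 6261 to 6888 in the day 4 WT, 8637 to 9454 in the Mll1-KO, 7214 to 8279 in the Mll2-KO and 14951 to 15715 in the double-KO, with none of the 8 at 0. They are led by the collagen gene Col3a1, while Col1a2 was 79 ± 12 in WT and 9 ± 2 in the double-KO (SD, n = 3). By gene, 2 of the 8 rose and 1 fell against WT in the Mll1-KO. In the Mll2-KO 3 rose and 2 fell, and in the double-KO 5 rose and 2 fell, so the sums do not stand for every marker. Summed endoderm markers at day 4 were 23430 to 23893 in WT, 10739 to 11645 in the Mll1-KO, 29544 to 30839 in the Mll2-KO and 15994 to 16953 in the double-KO. Pluripotency markers summed to 3877 to 5129 in the day 4 WT, 1967 to 2369 in the Mll1-KO, 6817 to 7948 in the Mll2-KO and 3915 to 4096 in the double-KO, which overlapped WT. Of these 8 markers none rose and 7 fell in the Mll1-KO, 6 rose and none fell in the Mll2-KO, and 2 rose and 4 fell in the double-KO. Of all genes at day 4, 16.5% rose and 19.2% fell in the Mll1-KO, 25.4% and 20.3% in the Mll2-KO, and 27.6% and 23.3% in the double-KO. At day 0, summed endoderm markers were 5354 to 5985 in WT, 551 to 560 in the Mll1-KO and 590 to 646 in the double-KO, while the Mll2-KO had 4383 to 4844. Of 19 hypoxia genes, 18 fell and none rose in the day 0 Mll1-KO (median -0.99), 17 fell and 1 rose in the Mll2-KO (median -1.66), and 17 fell and none rose in the double-KO (median -1.08). Of all genes, 18.7% fell and 21.3% rose in the day 0 Mll1-KO, 24.3% and 22.8% in the Mll2-KO, and 27.1% and 26.6% in the double-KO. Of 18 hypoxia genes tested at day 4, none rose and 13 fell in the Mll1-KO. In the Mll2-KO 12 rose and 3 fell, and in the double-KO 11 rose and 5 fell. Of 19 integrated stress response genes tested at day 4, 2 rose and 6 fell in the Mll1-KO. In the Mll2-KO 12 rose and 2 fell, and in the double-KO 9 rose and 3 fell. Among the day 0 WT libraries, replicate 1 was the lowest for 18 of the 19 hypoxia genes and the highest for 7 of 7 endoderm markers detected. Without that library the p53 genes called against WT at day 0 were 5 higher and 14 lower in the Mll1-KO, 13 and 4 in the Mll2-KO, and 7 and 13 in the double-KO. In bulk libraries fewer cells of a type and less RNA per cell cannot be told apart, and the part of these markers in the p53 gene differences was not tested.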

How the data were processed

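PolyA RNA of 24 libraries (TruSeq stranded mRNA) was measured, and 1 table of 19953 genes was used. Its values are signal as deposited by the authors: the reads of a gene divided by 1 size factor per library. Every value came out whole (100%) at a tolerance of 1e-06 once multiplied by that factor, so whole reads, which may be rounded estimates, were recovered for count models. STAR 2.7.10a, SAMtools 1.13, RSEM 1.3.1, DESeq2 1.34.0, Trim Galore 3.4 and FastQC are named with the mm10 build, per the submitters' processing notes, while the annotation and the strand setting of the counting were not given in the sources used here.

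Log2 of the normalized count plus 1 was fitted with limma 3.58.1 (trend) in R 4.3.3, over the 12 libraries of a day or, across days, all 24, on genes with at least 10 in 3 libraries. P-values were adjusted over all genes tested by the Benjamini-Hochberg method. The script was tested on simulated data. Alternatives used edgeR 4.0.16 (quasi-likelihood), DESeq2 1.42.0, other pseudocounts, filters and scalings, a replicate block and leaving out each library. Library values are given in full for Trp53, Cdkn1a, Mdm2 and the largest calls, and other lists give up to 2 calls in each direction, where the higher group averaged 50 or more. The members and lists were chosen with earlier results of these data known. An extra letter in the names of the day 0 WT columns has no explanation in the labels, and these were read as WT because no other WT column exists for that day.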

Additional observations from a re-analysis of the deposited data

Results flagged for a closer look

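Differences that changed between groups were picked by the test of the change itself (limma, adjusted p below 0.05), and up to 3 genes in each direction are named by size, a choice made after their values were seen. Between days, the double-KO difference from WT changed in 27 p53 genes, with Rrm2b (1.49), Cdkn1a (1.40) and Eda2r (1.06) upwards and Ddit4l (-0.43) downwards. The Mll1-KO difference changed in 19, with Fas (2.36), Gdf15 (1.502) and Rrm2b (1.33) upwards and Ckap2 (-0.24), Gtse1 (-0.20) and Bax (-0.20) downwards. The value of Fas was 1.47 with 5 added before taking logarithms, since its day 0 counts are near 0, and each of the 3 downward calls was ended by 5 or more of the alternatives. The Mll2-KO difference changed in 14, with Pmaip1 (0.56), Gtse1 (0.55) and Pidd1 (0.45) upwards and Gdf15 (-1.58), Ddit4l (-1.10) and Tnfrsf10b (-0.38) downwards.

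The difference that came with Mll2 loss and 4-OHT together was not the same with and without Mll1 in 5 p53 genes at day 0. Tnfrsf10b (-0.62), Bbc3 (-0.31) and Mdm2 (-0.28) had the largest departures. The Mdm2 call was ended by 3 alternatives and the Bbc3 call by 6. At day 4 there were 13, with Eda2r (0.59), Ccng1 (0.39) and Perp (0.38) upwards and Sesn1 (-0.53) and Dcxr (-0.33) downwards, and the Dcxr call was ended by 9 alternatives.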

How the results depend on the processing

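The count of p53 genes called stayed within 1.5 times its reported value in all but 3 of the 19 comparisons under every alternative run. Leaving out 1 library gave 7 to 12 calls for the day 0 double-KO against the Mll1-KO (11 with all), 2 to 6 for the day 0 departures from additivity (5 with all) and 8 to 15 for those of day 4 (13 with all). The lowest values came without day 0 Mll1-KO replicate 1 (7), without day 0 WT replicate 2 or double-KO replicate 2 (2), and without day 4 Mll2-KO replicate 2 (8). With all 24 libraries in 1 fit the day 4 count was 8, and the cause was not tested. Scaling to column totals turned the day 4 against day 0 difference of the Mll1-KO for Zmat3 (0.036, from -0.20), Aen (0.11, from -0.12) and Ei24 (0.041, from -0.20). Over the single gene differences it ended 30 calls and made 27 of 621. edgeR ended 8 and made 5, and DESeq2 ended 7 and made 2 of 620. Residuals of same-numbered libraries had a median r of 0.000569 at day 0 and 0.0170 at day 4, against -0.00403 and -0.00929 for other numbers, and 5 and 9 of 12 libraries were closest to their own number. No such r passed 0.0768, so the numbers were not read as pairing. With the replicate number as a block 2 calls were lost and 5 gained, and the counts were 30 for the day 4 double-KO against WT, 19 for the day 0 Mll2-KO, 7 and 12 for the departures from additivity at day 0 and day 4. Depth limits Fas at day 0 and Gdf15 at day 4, which lay near the level needed for the test.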
